A study of Mus musculus with 22 samples.

Results

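The comparison set 3 libraries of lung arterial smooth muscle cells against 4 libraries of intestinal arterial smooth muscle cells, 7 of the 22 libraries in the series. Libraries were chosen by the tissue in their labels, and every gene of the table entered: 14798 of 28099 genes reached a signal of 10 in 3 or more of the 7 libraries and were tested. The series measured RNA in cells of this type from 7 mouse tissues, and how the cells were isolated is not given in the sources used here. Both groups carried the genotype Cspg4-Dre/Acta2-CreERT/R26-GFP and both received tamoxifen by injection on 3 days (0.75 mg for each 10 g of body weight), so no library came from untreated animals. Dre and CreERT are recombinases, CreERT being one that tamoxifen switches on, and each is made wherever the gene that drives it is active: Cspg4 in pericytes and other mural cells, Acta2 in smooth muscle. How the GFP reporter reads the recombinases is not given in the sources used here. Age, sex and strain are not given in the labels, and nothing says that the libraries of a tissue stem from different animals. The p-values here therefore reflect only how these samples vary, and that variation may be technical.

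Arterial smooth muscle holds vessel tone through calcium entry and release, phosphorylation of myosin light chains, and receptors for nerve and circulating signals. Lung arteries carry the whole blood flow at low pressure and constrict when oxygen falls, whereas gut arteries are systemic vessels that dilate then and constrict under sympathetic nerves. In the embryo the mesenchyme of each organ is marked by its own transcription factors, T-box genes in the lung and Nkx, Hand and Barx genes in the gut, and by Hox genes that mark position along the body.

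Values are the deposited signal, whole numbers that, judged from their steps, are read counts scaled per library, and log2 fold changes are of (signal + 1), lung minus intestine, ± the limma standard error. A gene is called higher or lower in lung at a limma adjusted p (Benjamini-Hochberg) under 0.05 with a fold of at least 2. Rebuilt depth was 6036388 to 8550408 reads in lung and 9176820 to 12708530 in intestine. One read was worth 0.6631 to 0.9354 units of signal in lung and 0.4216 to 0.5772 in intestine. In 2142 genes reads reached at least 0.5 per exonic base in some library; such genes are near a read ceiling and carry a dagger (†). For them equal reads alone give a log2 difference of 0.73 in favour of lung, and 175 of the 274 ceiling genes called higher lay within 0.73 of the threshold. Lung 2 and lung 3 carried a diffuse low signal: 505 olfactory receptor genes had a median of 1 in lung 2, 3 in lung 3 and 0 in the other 5 libraries. Single-digit values in lung 2 and 3 therefore do not separate from that level. Where a library of 1 group had a signal of 0 or 1, the fold would rest on the added 1, so values and adjusted p are given without it. Lists below are counted over their tested members, and 1166 of the 1176 genes listed were in the table.

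Lung and intestine differed widely. In limma 1419 genes (9.59% of those tested) were higher in lung and 4145 (28.0%) were lower, 5564 in all (37.6%). Adjusted p alone, with no minimum fold, passed for 9410 (63.6%). Correlations between libraries, across genes, were 0.932 to 0.958 within lung, 0.955 to 0.975 within intestine and 0.663 to 0.724 between them. The median log2 fold change of all tested genes was -0.15, but it was -0.29 in genes under the read ceiling and 0.49 in genes near it. With the genes under the ceiling centred at 0, a choice made after the data were seen, 2724 genes were higher and the share of called genes that were higher went from 25.5% to 44.7%. That centring adds 0.29 to every log2 fold change, so directions of values between -0.29 and 0 turn with it. In a fit of all 22 libraries, with 1 spread shared by the 7 tissues, 2818 genes were called, 827 higher and 1991 lower, and 3670 passed adjusted p alone. Where a list's count moved by over 1.5 times in that 22-library fit, its count there is given below. Counts of neuron, glial, mesothelial, macrophage and lymphocyte markers are for the fit of 7 libraries alone. The shares of 9.59% higher and 28.0% lower over all tested genes are the background for each list count.

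**Figure D1:**
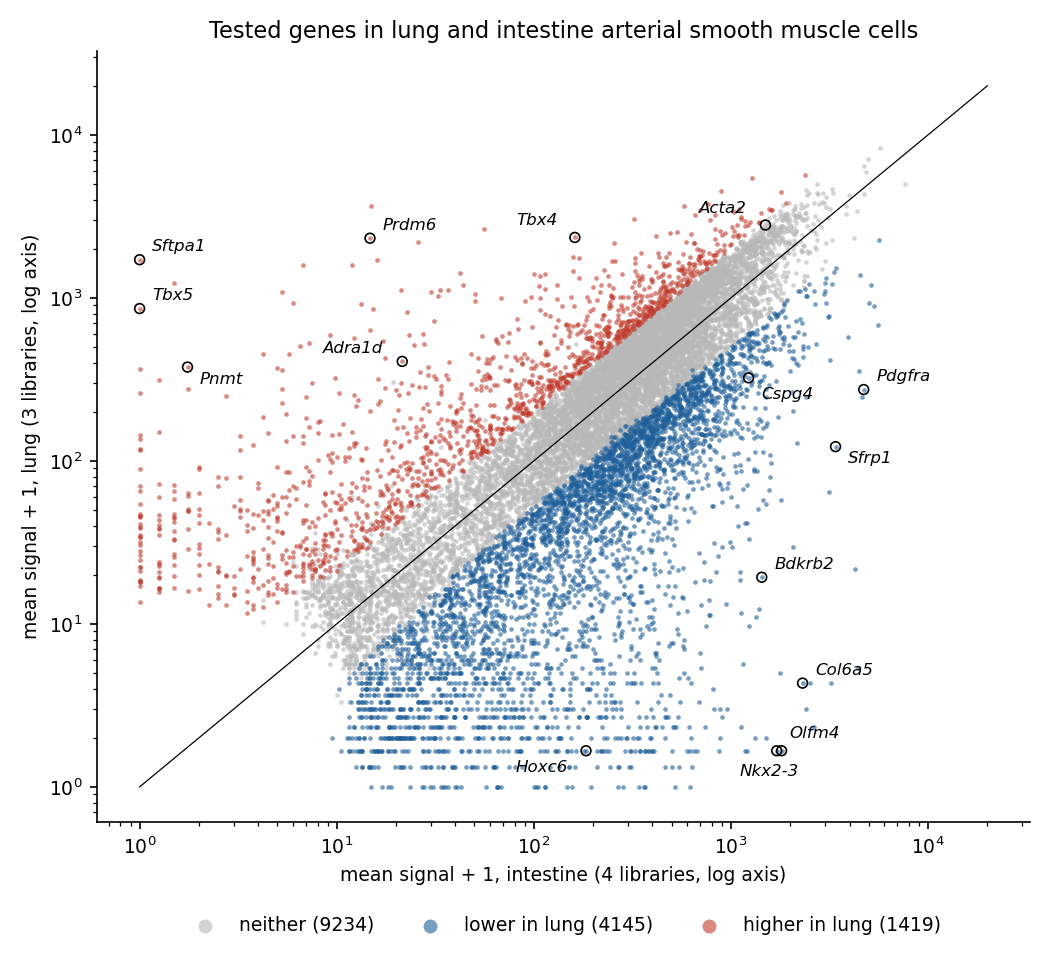
Mean signal + 1 of the tested genes in intestine (x axis, 4 libraries) and lung (y axis, 3 libraries), both on log axes, coloured by call; the line marks equal means. Blue points, the 4145 genes lower in lung, outnumber the 1419 red ones, and Tbx5 and Nkx2-3 lie at opposite corners.

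The genes that drive the recombinases were present in all 7 libraries, and Cspg4 was called lower in lung while Acta2† was not called. Acta2†, which encodes smooth muscle alpha-actin (ENSMUSG00000035783, mm39 chromosome 19, 34218490 to 34232990), was at 3264, 2399 and 2732 in lung and 1485, 1376, 1343 and 1782 in intestine. Every lung library lay above every intestinal one, yet the difference (log2 fold change 0.90 ± 0.13, limma adjusted p = 0.000158) stayed under the fold threshold. Without lung 2 it was just past it. For genes near the ceiling, such as Acta2†, equal reads alone give 0.73 in favour of lung. Cspg4, which encodes the mural cell proteoglycan NG2 (ENSMUSG00000032911, mm39 chromosome 9, 56772317 to 56807154), was at 474, 243 and 250 in lung and 1218, 1512, 1146 and 1038 in intestine. Here every intestinal library lay above every lung one (log2 fold change -1.99 ± 0.22, limma adjusted p = 2.52e-05).

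Markers of other cells moved with the tissue, and their part in the results below was not tested. In bulk libraries fewer cells of a type and less RNA per cell cannot be told apart. The summed signal of 18 lung epithelial markers was 5066 to 7076 in lung and 441 to 670 in intestine, where 5 of them were at 0 throughout. Of 16 tested 13 were higher, beside 9.59% of all genes. Of 22 intestinal and 14 pan-epithelial markers 21 and 13 were lower, beside 28.0% of all genes, 15 and 8 of these near the ceiling. The sum of 22 intestinal epithelial markers was 321 to 592 in lung and 9794 to 12500 in intestine, and 14 pan-epithelial markers summed to 2334 to 2622 and 7716 to 11368. The ranges were separate between the tissues for all 3 lists. Surfactant genes of alveolar cells led the first list: Sftpa1† was at 1141, 2101 and 1899 in lung and listed at 0 in all 4 intestinal libraries. Sftpc† was at 1392, 1090 and 1239 in lung and 1, 0, 0 and 1 in intestine. Olfm4†, a crypt stem cell marker, was at 0, 0 and 2 in lung and 1449, 1480, 1735 and 2162 in intestine. Each of these 3 genes was near 0 in 1 tissue and abundant in every library of the other. Cdh1†, the epithelial cadherin, was at 2, 13 and 17 in lung and 1260, 832, 1433 and 971 in intestine.

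Of 18 endothelial markers 3 (16.7%) were higher and 3 (16.7%) lower in lung, beside 9.59% and 28.0% of all tested genes. Their sums of 7313 to 10291 in lung and 5342 to 8012 in intestine overlapped. Cldn5†, a tight junction gene of endothelium, was among the higher (806, 527 and 597 in lung and 110, 57, 70 and 92 in intestine). Kdr, a VEGF receptor, was among the lower (208, 54 and 37 in lung and 679, 276, 366 and 257 in intestine). Of 17 pericyte markers 1 (5.88%) was higher and 9 (52.9%) were lower (4 of the 9 near the ceiling). Their sums did not overlap at 14584 to 16542 in lung and 19328 to 22244 in intestine. Rgs5†, a brake on G protein signals that marks pericytes, was at 465, 507 and 591 in lung and 3042, 2460, 2595 and 2682 in intestine. Of 16 fibroblast markers 5 (31.2%) were higher and 3 (18.8%) lower, with sums of 19818 to 25963 in lung and 16995 to 19282 in intestine. Pdgfra†, a receptor that marks fibroblasts and gut subepithelial cells, was at 306, 306 and 207 in lung and 5111, 5130, 4580 and 4046 in intestine, a 17.4-fold lower level in lung (log2 fold change -4.12 ± 0.15, limma adjusted p = 2.02e-08). Pi16, a marker of adventitial fibroblasts, went the other way at 1026, 968 and 858 in lung and 68, 42, 41 and 47 in intestine. The 22-library fit called 3 pericyte, 1 endothelial and 1 fibroblast marker lower and 0 pericyte markers higher.

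Other cells of the gut wall had markers in both tissues, with higher sums in intestine. The sums were 289 to 475 in lung and 478 to 591 in intestine for 14 enteric neuron markers, and 88 to 164 and 280 to 472 for 10 glial ones. For 7 markers of interstitial cells of Cajal they were 2953 to 3839 and 4335 to 5629, and for 8 mesothelial ones 160 to 407 and 1151 to 1655. No lung library reached the lowest intestinal sum of any of these 4 lists. For neurons the margin was narrow, 475 against 478. Nos1, given below, made up a large part of the intestinal neuron sums, and the separation of these sums rests on it. Krt19†, an epithelial keratin, made up most of the intestinal mesothelial sums. It was at 82, 157 and 64 in lung and 1194, 1063, 1131 and 1502 in intestine. Of 6 tested neuron markers 2 were higher and 3 lower in lung, and of 5 glial ones 2 and 3. Tubb3 was among the higher neuron markers, and Hand2, given below as a factor of gut muscle, among the lower. Among 6 mesothelial markers tested 1 was higher and 2 lower. Of all tested genes 9.59% were higher and 28.0% lower.

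Cardiac muscle genes stood out in lung, where 9 of 11 tested were higher (5 in the 22-library fit) and 1 lower, with sums of 3525 to 4230 against 704 to 1005. Actc1†, cardiac alpha-actin, made up most of that summed signal, at 2544, 1836 and 2129 in lung and 229, 333, 207 and 248 in intestine. Tnni3, cardiac troponin I, was at 54, 253 and 114 in lung and 5, 6, 6 and 6 in intestine, with lung 1 lowest of the lung libraries. Pln, phospholamban, was the 1 lower member (29, 17 and 18 in lung and 175, 88, 161 and 124 in intestine). Acta1†, skeletal alpha-actin, was at 877 in lung 2 alone and at most 35 in the other 6 libraries; without lung 1 it was called higher (3.31). Macrophage markers summed to 1412 to 1746 in lung and 244 to 352 in intestine. Lyz2†, a macrophage and alveolar cell lysozyme, made up most of the lung sum. It was at 1226, 1420 and 1584 in lung and 96, 120, 121 and 117 in intestine. Of 4 tested macrophage markers Lyz2† alone was called, and 10 were not tested. Ptprc, which marks all leukocytes, reached at most 20. Igkc†, an antibody light chain, was at 0, 1 and 3 in lung and 393, 323, 408 and 516 in intestine.

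**Figure D2:**
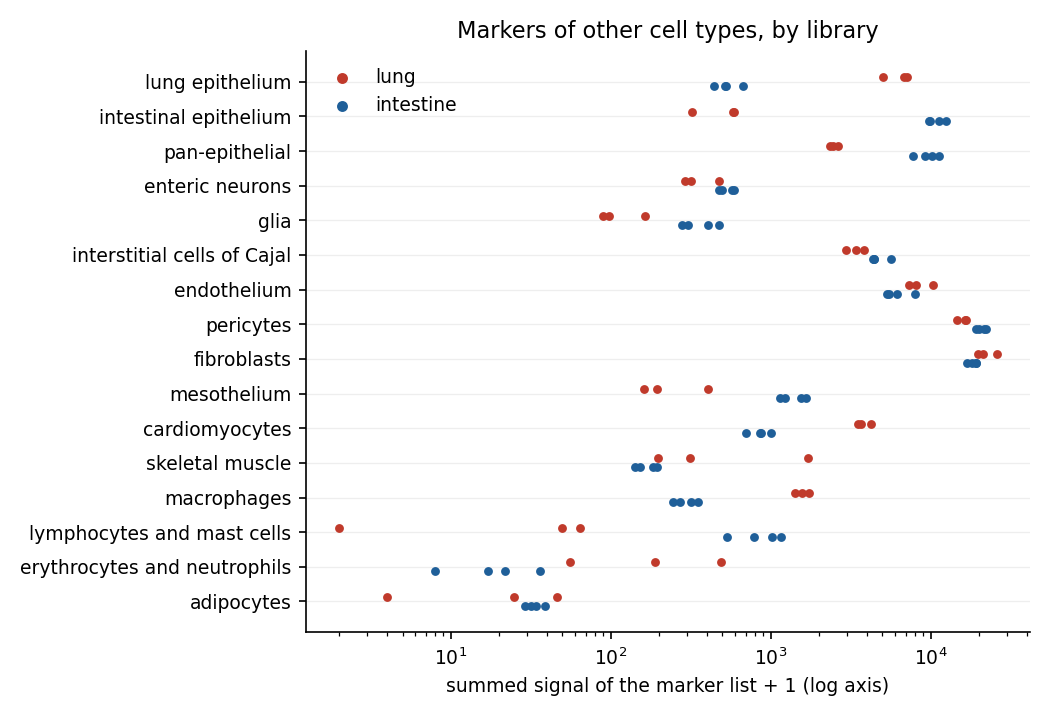
Summed signal + 1 of each list of cell markers (log x axis), 1 point per library, lung in red and intestine in blue. The tissues overlap for endothelium and adipocytes and are separate for every other list, furthest for both kinds of organ epithelium and for lymphocytes and mast cells.

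Transcription factors of organ mesenchyme differed with the organ. Of 14 tested gut mesenchyme factors 11 (78.6%, beside 28.0% of all genes) were lower in lung and 0 higher, with a median log2 fold change of -4.27 against -0.15 over all tested genes. Nkx2-3†, a homeobox gene of gut and spleen mesenchyme (ENSMUSG00000044220, mm39 chromosome 19, 43600764 to 43604331), was at 0, 1 and 1 in lung and 1758, 1710, 1612 and 2144 in intestine (limma adjusted p = 7.74e-09). It was thus near 0 in every lung library and abundant in every intestinal one, and the means of the other 5 tissues ran from 0 to 84.7. Pitx1, a homeobox gene of hindlimb and gut, was at 3, 1 and 1 in lung and 230, 89, 206 and 218 in intestine. Gata4, a zinc finger factor of gut and heart, was at 22, 29 and 8 in lung and 418, 359, 646 and 522 in intestine. Barx1†, a stomach mesenchyme factor, varied among intestinal libraries at 350, 22, 212 and 330 and reached at most 6 in lung. Hand1, Hand2 and Nkx3-2, factors of lateral mesoderm and gut muscle, were at 3 or less in lung and at 25 to 89 in intestine. These factors were at or near 0 in lung, so they were separate from intestine in all libraries. Foxl1, a marker of cells under the gut epithelium, was lower by less (137 ± 20.3 in lung and 458 ± 92.6 in intestine, log2 fold change -1.73 ± 0.20, limma adjusted p = 2.6e-05). Foxf2†, Hlx and Six2 were called in neither direction, although Foxf2† was lower without lung 1 (-1.10), intestine 1 or intestine 3 (-1.01).

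Of 16 lung mesenchyme factors 6 (37.5%) were higher and 4 lower in lung, and the median was 0.31. The 6 included Nkx2-1, which is also in the list of lung epithelial markers. The part of epithelial cells in its signal was not tested. Tbx5, the T-box factor that starts lung bud formation and also patterns heart and forelimb (ENSMUSG00000018263, mm39 chromosome 5, 119970733 to 120023284), was at 918, 919 and 740 in lung and listed at 0 in all 4 intestinal libraries (limma adjusted p = 2.84e-08). Its mean was 136.7 or less in each of the 5 other tissues, so it stood high in lung against every tissue of the series. Tbx4†, its partner in lung and hindlimb (ENSMUSG00000000094, mm39 chromosome 11, 85777248 to 85806923), was at 2555, 2312 and 2177 in lung and 109, 211, 145 and 177 in intestine (log2 fold change 3.90 ± 0.20, limma adjusted p = 1.18e-07). Lung libraries stood far above each intestinal one. Gata6, which acts in lung and vascular muscle, was at 907, 968 and 795 in lung and 141, 93, 164 and 157 in intestine (log2 fold change 2.7, limma adjusted p = 1.52e-06). Wnt2, a ligand of the lung field, was low in both but higher in lung (40, 23 and 59 in lung and 8, 8, 6 and 1 in intestine). Wnt2b, its relative, was lower (1, 19 and 22 in lung and 153, 196, 143 and 150 in intestine), and 2 members of the list, not 4, were lower with lung 1 as the lone lung library and 1 in the 22-library fit. Foxf1† (1825 ± 57.3 in lung and 1720 ± 191 in intestine) and Tcf21† (1015 ± 210 in lung and 1137 ± 140 in intestine), which mark mesenchyme of both organs, and Tbx2† (2517 ± 180 in lung and 2055 ± 252 in intestine) were called in neither direction.

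Hox genes differed by cluster. Of 22 genes of paralogue groups 1 to 8, 16 were tested, with 4 higher and 4 lower in lung, and of 15 posterior ones 1 was tested. The 4 lower genes were Hoxc4, Hoxc5, Hoxc6 and Hoxd8, all of the HoxC and HoxD clusters, and the 4 higher were Hoxa7, Hoxb5, Hoxb6 and Hoxb7, of HoxA and HoxB. This split by cluster was read from the called genes and was not tested. Hoxc6 (ENSMUSG00000001661, mm39 chromosome 15, 102906689 to 102920313) was at 0, 1 and 1 in lung and 141, 213, 164 and 214 in intestine. Hoxd8 was at 0, 1 and 1 in lung and 180, 266, 153 and 117 in intestine. Both were thus at or near 0 in lung. Hoxb5 (ENSMUSG00000038700, mm39 chromosome 11, 96194162 to 96196947) was at 611, 663 and 604 in lung and 158, 201, 182 and 215 in intestine (log2 fold change 1.73 ± 0.16, limma adjusted p = 5.34e-06). Hoxa7 was at 287, 299 and 278 in lung and 26, 43, 32 and 30 in intestine (log2 fold change 3.12 ± 0.27, limma adjusted p = 3.53e-06). These 8 were picked by their calls in the same libraries, so the lack of overlap between their groups is no added support. In the 22-library fit 1 gene, not 4, was called higher. Genes of groups 1 to 4 in HoxA and HoxB, such as Hoxa4 (157 ± 13.1 in lung and 158 ± 18.3 in intestine), were called in neither direction, as was Hoxa5 (381 ± 91.1 in lung and 301 ± 47.9 in intestine), whose product acts in lung formation. Of 9 Hox cofactors 3 (33.3%) were lower, beside 28.0% of all tested genes, and 0 in the 22-library fit. Pbx2 was among the 3 (37, 78 and 66 in lung and 159, 213, 172 and 252 in intestine), while Meis1 was called in neither direction.

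**Figure D3:**
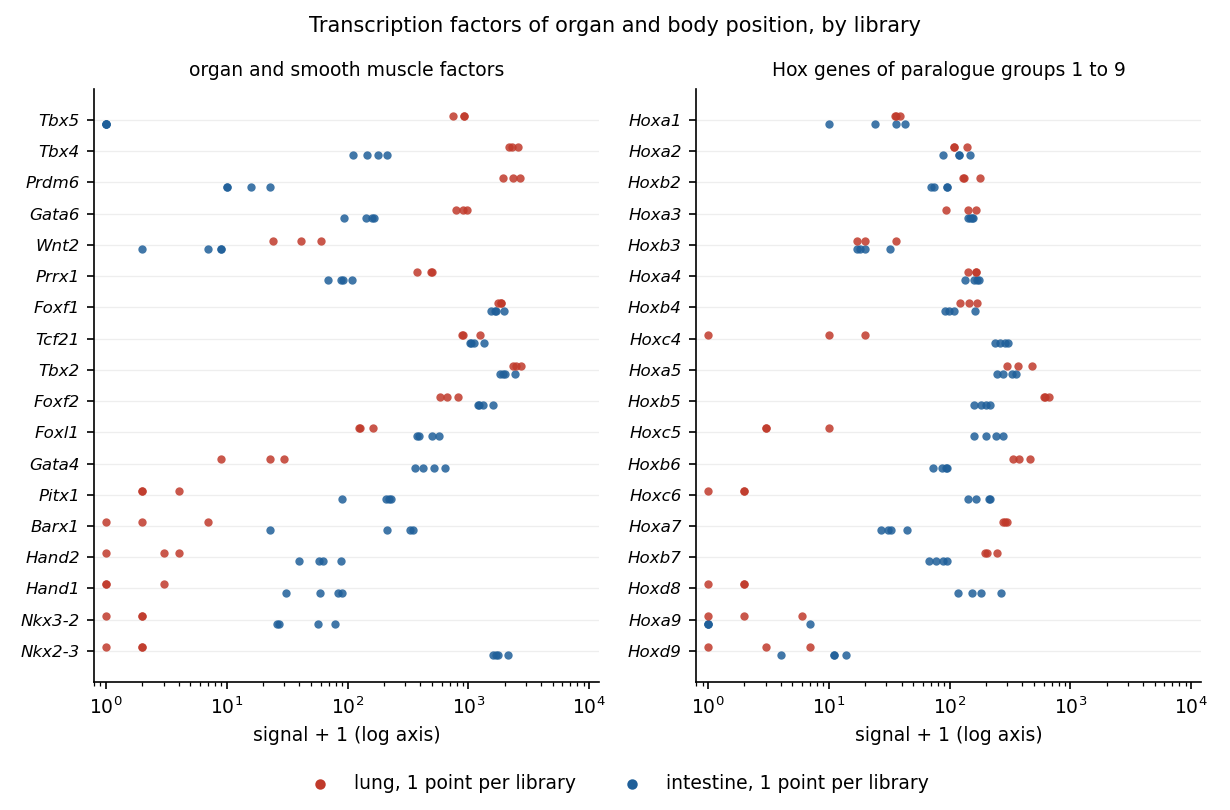
Signal + 1 (log x axis) of organ factors (left) and Hox genes of groups 1 to 9 (right), 1 point per library, lung in red and intestine in blue. Lung points lie far to the right for Tbx5 and Prdm6 and far to the left for Nkx2-3, Hoxc6 and Hoxd8, while both tissues overlap for Foxf1 and for most Hox genes of groups 1 to 4.

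Set against the other 5 tissues, the called genes held differing positions. Among the 1419 genes higher in lung, the lung mean lay outside the range of the other 5 tissue means and the intestinal mean within it for 519 (36.6%), and the reverse held for 285 (20.1%). Among the 4145 lower genes those numbers were 568 (13.7%) and 1334 (32.2%). For 1971 of the lower genes (47.6%) and 458 of the higher (32.3%) both tissues lay within the range of the other 5. Both lay outside it for 272 (6.56%) and 157 (11.1%). These are positions of means and carry no test, and they were not counted over all tested genes.

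Most contractile genes were called in neither direction. Of 35 contractile genes 8 (22.9%) were higher, 4 (11.4%) lower and 23 neither, with a median of 0.61; 24 were near the ceiling. Without ceiling genes 4 were higher and 4 lower, and with the centring 16 were higher and 1 lower, the latter also the count in the 22-library fit. Myh11†, the smooth muscle myosin heavy chain (ENSMUSG00000018830, mm39 chromosome 16, 14012399 to 14109236), was at 9193, 7492 and 8186 in lung and 5975, 5338, 5350 and 6076 in intestine and was not called (0.54). Itga8, the alpha subunit of a fibronectin and nephronectin receptor of smooth muscle (ENSMUSG00000026768, mm39 chromosome 2, 12111443 to 12306733), was at 2871, 2418 and 2171 in lung and 648, 443, 538 and 335 in intestine (log2 fold change 2.37 ± 0.20, limma adjusted p = 2.9e-06). Hspb6†, a small heat shock protein that takes part in relaxation, was at 2190, 1626 and 1856 in lung and 487, 311, 405 and 503 in intestine (log2 fold change 2.16 ± 0.18, limma adjusted p = 2.34e-06). Both lay well above every intestinal library in every lung library. Tagln, which encodes SM22, was higher at 452, 371 and 373 in lung and 153, 152, 160 and 203 in intestine (log2 fold change 1.25 ± 0.18, limma adjusted p = 0.000125). Ldb3, a Z-line scaffold, was higher too (891, 994 and 610 in lung and 324, 252, 349 and 346 in intestine, log2 fold change 1.37 ± 0.19, limma adjusted p = 0.000101). Adhesion and filament genes made up 3 of the 4 lower members. Vcl, vinculin, was at 456, 416 and 401 in lung and 1570, 1504, 1331 and 972 in intestine (log2 fold change -1.64 ± 0.16, limma adjusted p = 9.72e-06). The others were Pgm5, of the same adhesion sites (80.7 ± 13.6 in lung and 195 ± 30 in intestine), and Synm, an intermediate filament (273 ± 25.1 in lung and 566 ± 119 in intestine). The fourth lower member was Ppp1r12b, a myosin phosphatase subunit (788 ± 125 in lung and 1703 ± 322 in intestine). Flna†, filamin A, was at 4940, 5077 and 4902 in lung and 7852, 7270, 6952 and 8328 in intestine, separate between the groups but under the fold threshold (-0.61).

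Genes that control smooth muscle transcription were called in both directions. Of 25 tested 5 (20.0%) were higher and 7 (28.0%) lower, beside 9.59% and 28.0% of all tested genes, with a median of -0.42. With the centring 4 were lower and in the 22-library fit 2, and 2 of the 5 higher members were near the ceiling. Prdm6†, a repressor expressed in vascular smooth muscle, was at 2678, 2342 and 1946 in lung and 15, 9, 22 and 9 in intestine (log2 fold change 7.38 ± 0.32, limma adjusted p = 4.18e-08). It was abundant in every lung library and low in every intestinal one. Heyl†, a Notch target of arterial muscle, was at 3765 ± 340 in lung and 760 ± 52.8 in intestine. Hey2, of the same family, was at 420 ± 34.5 in lung and 173 ± 28 in intestine. Prrx1, a mesenchymal homeobox gene, was higher (491, 496 and 374 in lung and 108, 91, 87 and 68 in intestine, log2 fold change 2.35 ± 0.22, limma adjusted p = 6.06e-06). Klf5†, a zinc finger factor of growing muscle and of crypts, was at 22, 52 and 81 in lung and 945, 797, 1212 and 1320 in intestine (log2 fold change -4.50 ± 0.36, limma adjusted p = 2.06e-06), below every intestinal library throughout. Srf, the factor that binds CArG boxes (116, 365 and 248 in lung and 415, 469, 406 and 574 in intestine, log2 fold change -1.07 ± 0.32, limma adjusted p = 0.0114), was lower, and lung 1 lay lowest. Its coactivator Mrtfa (145 ± 42 in lung and 340 ± 18.5 in intestine) and Yap1 of the Hippo pathway (157 ± 41.6 in lung and 450 ± 36.6 in intestine) were lower too. Myocd, myocardin itself, was not called (192, 218 and 86 in lung and 295, 298, 294 and 196 in intestine). Srf was not called without lung 1 (-0.61) or without intestine 4 (-0.97), and Ppp1r12b not without lung 1 (-0.97). Synm was not called without lung 2 (-0.95) or intestine 1 (-0.91), whereas Myocd was without lung 2 (-1.05). With the centring none of Srf (-0.79), Mrtfa (-0.97), Synm (-0.74), Pgm5 (-0.98) and Ppp1r12b (-0.82) was called.

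Promoters of a few of these genes hold a CArG box, the serum response element that Srf binds, and 3 are shown because their genes were called in opposite directions. The window was the 250 bases before each gene start and the 50 after it, from RefSeq on GRCm38.p6, both strands searched. A box was found in 535 of 32851 such windows (1.63%). It was found in 5 of 31 matched contractile genes (16.1%), of which 1 was higher, 1 lower and 3 neither. Among 18 matched transcription control genes it was found in Srf alone. Capitals mark the box in the stretches below, at chr14:20929148-20929210 (plus strand) for Vcl, chr14:34588682-34588746 (minus strand) for Ldb3 and chr17:46556185-46556274 (minus strand) for Srf.
Vcl: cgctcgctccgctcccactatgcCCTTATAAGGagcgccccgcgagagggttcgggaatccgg
Ldb3: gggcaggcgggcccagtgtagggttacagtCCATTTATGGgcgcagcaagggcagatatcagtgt
Srf: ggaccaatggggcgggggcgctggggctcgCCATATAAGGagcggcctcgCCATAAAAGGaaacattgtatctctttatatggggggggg
Ldb3 was higher in lung (1.37) and Vcl (-1.64) and Srf (-1.07) were lower. A match describes letters in the window and not binding.

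Receptors and enzymes for catecholamines were called in both directions. Of 16 tested 5 (31.2%) were higher, 2 of them near the ceiling, 7 (43.8%) lower and 4 neither. Without intestine 4, or with the centring, 4 were lower, and in the 22-library fit 3. Pnmt†, the enzyme that turns noradrenaline into adrenaline (ENSMUSG00000038216, mm39 chromosome 11, 98277276 to 98279007), was at 326, 385 and 415 in lung and 0, 0, 0 and 3 in intestine (limma adjusted p = 8.13e-07). Every lung library lay far above every intestinal one, and the 5 other tissue means were 2.33 or less. Th, the rate-limiting enzyme of catecholamine synthesis, was at 5 or less in all 7. Adra1d, the constricting alpha-1D receptor (ENSMUSG00000027335, mm39 chromosome 2, 131387770 to 131404203), was at 385, 379 and 456 in lung and 28, 13, 16 and 25 in intestine (log2 fold change 4.30 ± 0.33, limma adjusted p = 1.4e-06). Adra2a, the alpha-2A receptor (ENSMUSG00000033717, mm39 chromosome 19, 54032582 to 54037413), was at 0, 1 and 4 in lung and 390, 497, 367 and 355 in intestine (limma adjusted p = 5.5e-07). Each of the pair was abundant in every library of 1 tissue and low or near 0 in the other. Adra1a (80.3 ± 34.9 in lung and 67.2 ± 20.8 in intestine) and Adra1b (39.3 ± 11 in lung and 49.8 ± 6.24 in intestine) were called in neither direction. The relaxing beta receptor Adrb1 was lower (99, 42 and 96 in lung and 122, 177, 148 and 167 in intestine, log2 fold change -1.03 ± 0.32, limma adjusted p = 0.0155), near the fold threshold. It was not called without lung 2 (-0.64), intestine 2 (-0.96) or intestine 4 (-0.99), or with the centring (-0.75). Maob†, which breaks down amines, was higher (1482 ± 193 in lung and 226 ± 45.5 in intestine), as was Slc6a2, the noradrenaline transporter, at low level (14, 56 and 43 in lung and 0, 1, 0 and 0 in intestine).

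Receptors for other vasoactive signals were called in both directions. Of 52 tested 10 (19.2%) were higher and 24 (46.2%) lower, beside 9.59% and 28.0% of all tested genes, with a median of -0.88, and 4 were higher in the 22-library fit. Bdkrb2†, the B2 receptor for bradykinin (ENSMUSG00000021070, mm39 chromosome 12, 105529485 to 105561496), was at 1, 29 and 25 in lung and 1392, 1537, 1370 and 1434 in intestine (limma adjusted p = 1.54e-05). Avpr1a, the constricting vasopressin receptor (ENSMUSG00000020123, mm39 chromosome 10, 122284404 to 122289357), was at 0, 1 and 1 in lung and 353, 424, 368 and 310 in intestine (limma adjusted p = 8.83e-08). Hrh1, the H1 histamine receptor, was at 0, 1 and 6 in lung and 229, 342, 242 and 272 in intestine. These receptors were at 29 or less in every lung library, and so were both genes for the dilating VIP receptors, Vipr1 (1.67 ± 2.08 in lung and 211 ± 63.4 in intestine) and Vipr2 (11.3 ± 8.02 in lung and 408 ± 63.6 in intestine). P2ry1 for ADP (12 ± 4.36 in lung and 702 ± 113 in intestine) and Aplnr† for apelin (38.7 ± 45.6 in lung and 1090 ± 241 in intestine) were lower too. Of the angiotensin receptors Agtr1b was at 1, 1 and 8 in lung and 337, 384, 274 and 252 in intestine. Agtr1a was lower by less (79, 128 and 61 in lung and 381, 482, 295 and 338 in intestine, log2 fold change -2.10 ± 0.27, limma adjusted p = 5.85e-05).

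On the other side stood the receptor for thromboxane, Tbxa2r† (ENSMUSG00000034881, mm39 chromosome 10, 81164565 to 81171006), at 961, 978 and 908 in lung and 218, 247, 219 and 291 in intestine (log2 fold change 1.97 ± 0.14, limma adjusted p = 1.14e-06). Ptgfr, the constricting prostaglandin F receptor, was at 149, 143 and 66 in lung and 21, 3, 8 and 10 in intestine (log2 fold change 3.55 ± 0.57, limma adjusted p = 0.000292). P2ry6, for UDP, was at 250, 320 and 425 in lung and 20, 19, 33 and 48 in intestine (log2 fold change 3.49 ± 0.37, limma adjusted p = 1.49e-05). In each of these 3 genes every lung library exceeded every intestinal one. Npy1r†, the neuropeptide Y receptor that constricts with noradrenaline (1018 ± 140 in lung and 282 ± 58.5 in intestine), Htr2a, a constricting serotonin receptor (92.3 ± 38.5 in lung and 20 ± 10.4 in intestine), and Npr1, which makes cyclic GMP in response to atrial peptide (155 ± 38 in lung and 59 ± 8.98 in intestine), were higher. The endothelin receptors, main constrictors of pulmonary arteries, were called in neither direction. Ednra† was at 2257, 2058 and 1594 in lung and 2348, 2393, 2178 and 2096 in intestine. Ednrb† was at 1394, 1946 and 1741 in lung and 3135, 3175, 2813 and 2872 in intestine. Ednrb† lay lower in all 3 lung libraries (-0.83), under the fold threshold. Ptgir, for prostacyclin, was not called either (163 ± 31.5 in lung and 312 ± 67.9 in intestine), but was lower without lung 3 (-1.07) or intestine 4 (-1.05).

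**Figure D4:**
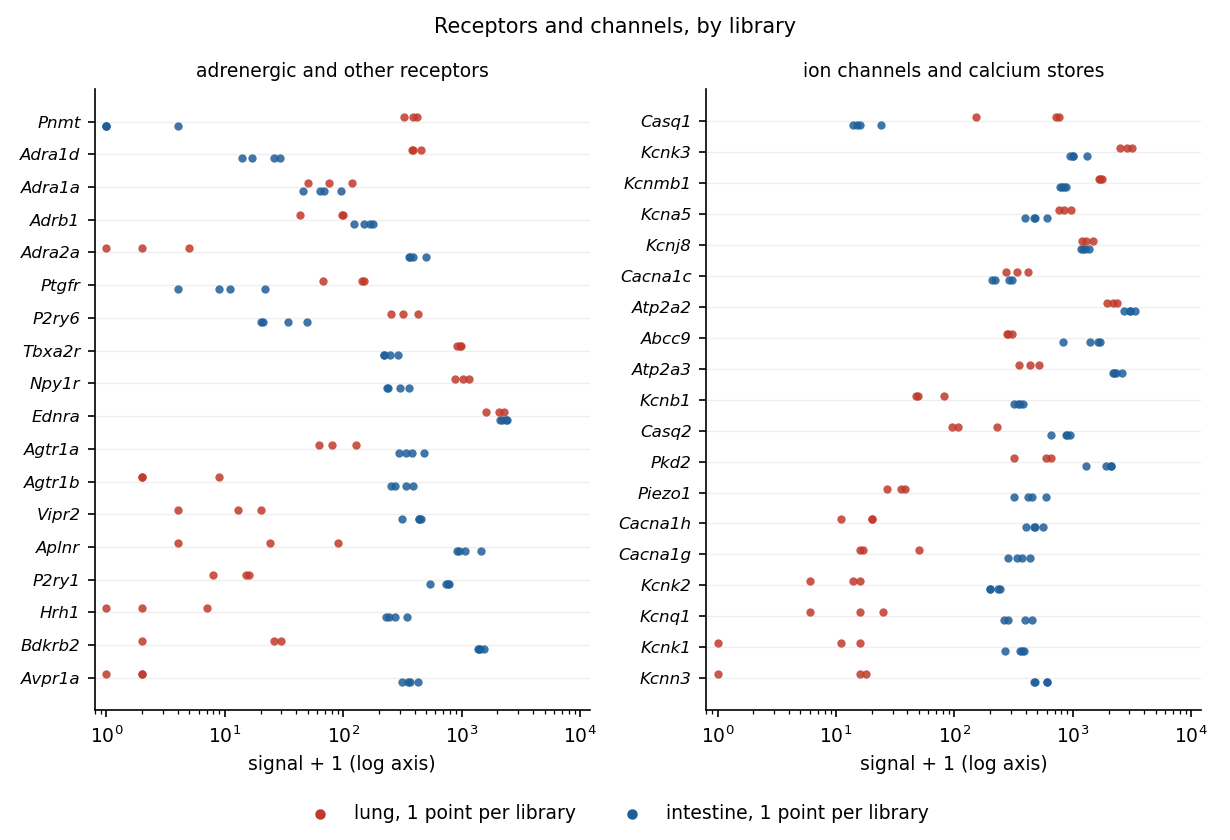
Signal + 1 (log x axis) of receptors and of Pnmt (left) and of ion channels and calcium stores (right), 1 point per library, lung in red and intestine in blue. Pnmt, Adra1d and Casq1 lie to the right in lung, Avpr1a, Bdkrb2, Adra2a and Kcnn3 far to the left, and both tissues overlap for Ednra and Kcnj8.

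Ion channel genes included members higher and lower in lung. Of 35 potassium channel genes 5 (14.3%) were higher and 16 (45.7%) lower, beside 9.59% and 28.0% of all tested genes, with a median of -0.88. Of the 5 higher members 2 were near the ceiling, 3 were called with lung 1 as the lone lung library, 8 members were higher with the centring, and 2 in the 22-library fit. Kcnk3†, the TASK-1 leak channel that sets resting potential in pulmonary artery muscle (ENSMUSG00000049265, mm39 chromosome 5, 30745514 to 30782615), was at 3132, 2474 and 2843 in lung and 999, 1006, 942 and 1323 in intestine (log2 fold change 1.41 ± 0.14, limma adjusted p = 7.5e-06). Every lung library exceeded every intestinal one. Kcnn3, a small-conductance channel opened by calcium (ENSMUSG00000000794, mm39 chromosome 3, 89427471 to 89582439), was at 0, 17 and 15 in lung and 607, 598, 471 and 474 in intestine (limma adjusted p = 5.68e-05). Kcnk2, the stretch-sensitive TREK-1, was at 15, 13 and 5 in lung and 230, 240, 198 and 200 in intestine (log2 fold change -4.30 ± 0.37, limma adjusted p = 3.71e-06). Both were low in lung and separate from intestine in all libraries. Kcnmb1†, the beta subunit of the large-conductance channel, was just past the threshold (1701 ± 49.1 in lung and 823 ± 37.7 in intestine, 1.05), while its pore gene Kcnma1 was not called (256 ± 54.1 in lung and 291 ± 41.1 in intestine). Abcc9, the SUR2 subunit of ATP-sensitive channels, was lower (302, 275 and 281 in lung and 1701, 1633, 1387 and 831 in intestine), but its pore partner Kcnj8† was not called (1314 ± 146 in lung and 1254 ± 83.2 in intestine). Kcna5, a channel closed by low oxygen in pulmonary muscle, was at 954, 757 and 846 in lung and 472, 395, 478 and 608 in intestine and fell short of the fold threshold (0.81).

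Of 35 calcium channel and store genes 3 (8.57%) were higher and 12 (34.3%) lower, near the 9.59% and 28.0% of all tested genes, and 1 was higher in the 22-library fit. Cacna1c, the L-type pore, was not called (342 ± 73.7 in lung and 254 ± 47.9 in intestine). The T-type pore Cacna1h was lower (10, 19 and 19 in lung and 480, 560, 471 and 403 in intestine), and so was Cacna1g (49, 15 and 16 in lung and 335, 429, 280 and 369 in intestine). Every lung library had at most 49 of either and every intestinal one at least 280. The calsequestrin genes went in opposite directions. Casq1†, the skeletal form (ENSMUSG00000007122, mm39 chromosome 1, 172037461 to 172047435), was at 150, 759 and 717 in lung and 13, 15, 14 and 23 in intestine. Casq2†, the cardiac form, was at 228, 95 and 107 in lung and 880, 941, 893 and 647 in intestine. Lung 1 lay lowest of the lung libraries for Casq1† and highest for Casq2†. Atp2a3†, a calcium pump of the store, was lower (351, 431 and 516 in lung and 2621, 2315, 2173 and 2221 in intestine, log2 fold change -2.44 ± 0.14, limma adjusted p = 2.12e-07), whereas Atp2a2†, the main pump, was not called (-0.49). Of 18 TRP, Piezo and chloride channel genes 11 (61.1%) were lower and 0 higher, with a median of -1.62, and 6 were lower in the 22-library fit. Piezo1, a channel opened by stretch, was at 34, 37 and 26 in lung and 451, 596, 419 and 318 in intestine (log2 fold change -3.72 ± 0.26, limma adjusted p = 6.94e-07). Pkd2, polycystin-2, was at 521 ± 178 in lung and 1836 ± 380 in intestine. Trpc6, a receptor-operated channel of pulmonary muscle, was not called (285, 114 and 148 in lung and 311, 222, 184 and 149 in intestine).

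Of 30 genes of relaxation through cyclic nucleotides 13 (43.3%) were lower and 2 (6.67%) higher, beside 28.0% and 9.59% of all tested genes. The list also holds phosphodiesterases, which break these nucleotides down, so the count gives no direction for relaxation. In the 22-library fit 5 were lower and 1 higher. Nos1, the neuronal nitric oxide synthase, was at 0, 7 and 3 in lung and 203, 299, 218 and 245 in intestine. It is also 1 of the 14 enteric neuron markers and made up a large part of their intestinal sums of 478 to 591. Those sums are thus not independent of Nos1, and the part of such cells was not tested. Pde1c, a phosphodiesterase driven by calcium, was at 0, 13 and 17 in lung and 381, 545, 412 and 245 in intestine. The lower phosphodiesterases also held Pde8b (12 ± 9.64 in lung and 193 ± 37.4 in intestine) and Pde3b (32 ± 16.5 in lung and 204 ± 43.7 in intestine). Irag1, a target of cyclic GMP kinase that holds back calcium release, was also lower (364 ± 108 in lung and 1192 ± 238 in intestine). Both subunits of guanylate cyclase, Gucy1a1† (2184 ± 554 in lung and 1966 ± 341 in intestine) and Gucy1b1† (1505 ± 84.1 in lung and 1449 ± 180 in intestine), were called in neither direction. Pde5a, the target of sildenafil, was not called either (701 ± 64.3 in lung and 735 ± 57.4 in intestine). Adcy3, an adenylate cyclase, was higher (1083, 1013 and 969 in lung and 317, 414, 360 and 218 in intestine, log2 fold change 1.68 ± 0.20, limma adjusted p = 3.09e-05). Of 23 RhoA and RGS genes 6 (26.1%) were higher and 3 lower. Rgs2†, which shortens signals of constricting receptors, was at 2834, 2347 and 2214 in lung and 620, 603, 613 and 679 in intestine (log2 fold change 1.96 ± 0.12, limma adjusted p = 2.64e-07). Rgs7 was at 113, 194 and 196 in lung and 7, 5, 19 and 8 in intestine (log2 fold change 4.08 ± 0.47, limma adjusted p = 2.78e-05). Rgs5† was lower as given above, so the RGS genes divided, with every lung library above every intestinal one for Rgs2† and below for Rgs5†.

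Of 22 tested genes for Wnt ligands and their secreted inhibitors 8 (36.4%) were higher and 9 (40.9%) lower, beside 9.59% and 28.0% of all tested genes. Among the inhibitors some were near 0 in lung and others near 0 in intestine. Sost, sclerostin (ENSMUSG00000001494, mm39 chromosome 11, 101853284 to 101857841), was at 204, 381 and 350 in lung and 0, 1, 0 and 0 in intestine (limma adjusted p = 3.26e-07). Sfrp2† was at 499, 1299 and 989 in lung and 5, 2, 3 and 10 in intestine (log2 fold change 7.35 ± 0.50, limma adjusted p = 6.24e-07). The 5 other tissue means of Sfrp2† were 831 to 2542, so intestine lay below every other tissue. Sfrp1† (ENSMUSG00000031548, mm39 chromosome 8, 23901518 to 23939648) was at 173, 155 and 36 in lung and 3469, 3272, 3060 and 3775 in intestine (log2 fold change -5.08 ± 0.42, limma adjusted p = 2.6e-06, and a log2 fold change of -4.36 without lung 3). Frzb, another of the family, was at 0, 14 and 2 in lung and 383, 469, 358 and 452 in intestine. Every intestinal library lay far above every lung one for both. Of the ligands Wnt11 was higher (810, 545 and 333 in lung and 19, 5, 8 and 13 in intestine). Wnt4 (69.7 ± 16.2 in lung and 765 ± 145 in intestine) and Wnt5a (291 ± 78.3 in lung and 1047 ± 254 in intestine) were lower.

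In the BMP pathway, whose receptor gene Bmpr2 is mutated in inherited pulmonary hypertension, 8 of 42 (19.0%) were higher and 13 (31.0%) lower, 3 and 5 of them near the ceiling. Of all tested genes 9.59% were higher and 28.0% lower, so the share of lower members lay near that of all genes, and 8 were lower in the 22-library fit. The ligand Bmp7† was at 79, 49 and 22 in lung and 1229, 1607, 1245 and 1415 in intestine. The ligands Bmp6† (218 ± 110 in lung and 1027 ± 88.2 in intestine), Bmp2† (240 ± 44.5 in lung and 1036 ± 115 in intestine) and Bmp4† (473 ± 192 in lung and 1446 ± 174 in intestine) were lower. The extracellular antagonist Grem1 was at 0, 34 and 14 in lung and 414, 269, 317 and 396 in intestine. The target genes Id1† (1107 ± 279 in lung and 492 ± 69.6 in intestine), Id2† (1928 ± 405 in lung and 718 ± 80.1 in intestine) and Id4† (2489 ± 396 in lung and 930 ± 34 in intestine) were higher, all near the ceiling, and Id1† was not called without lung 1 (0.95). Bambi, a decoy receptor and target under the ceiling, was at 1481, 1300 and 1212 in lung and 175, 174, 149 and 175 in intestine (log2 fold change 2.98 ± 0.14, limma adjusted p = 6.86e-08). Each lung library was far above any intestinal one for Bambi. Bmpr2 (286 ± 30.8 in lung and 387 ± 15.4 in intestine), Bmpr1a (-0.19) and the effector Smad1 (-0.22) were called in neither direction.

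Of 24 TGF-beta genes 10 (41.7%) were lower, 5 of them near the ceiling, and 2 higher, or 4 with the centring. In the 22-library fit 5 were lower and 1 higher. Tgfbr1, a receptor kinase, was at 152, 139 and 76 in lung and 766, 644, 605 and 231 in intestine (log2 fold change -2.12 ± 0.38, limma adjusted p = 0.000616). Intestine 4 lay nearest to lung. The other receptor genes Tgfbr2† (924 ± 191 in lung and 3033 ± 255 in intestine) and Tgfbr3† (574 ± 51.5 in lung and 2101 ± 402 in intestine) were lower as well. Of 15 Hedgehog genes 9 (60.0%) were lower and 0 higher, with a median of -1.08, and 3 were lower in the 22-library fit. The receptor and target Ptch1 (ENSMUSG00000021466, mm39 chromosome 13, 63656142 to 63721412) was at 214, 172 and 167 in lung and 1693, 2103, 1675 and 1425 in intestine (log2 fold change -3.21 ± 0.15, limma adjusted p = 7.64e-08). The effector Gli1 was at 91, 109 and 107 in lung and 365, 489, 455 and 513 in intestine (log2 fold change -2.14 ± 0.18, limma adjusted p = 3.09e-06). For both every intestinal library lay far above every lung one. Hhip†, a Hedgehog decoy that is also a target, was high in both (4054, 4103 and 2713 in lung and 3448, 3036, 2876 and 2782 in intestine). Of 22 Notch genes 12 (54.5%) were lower, or 5 in the 22-library fit, and 3 higher. Notch3†, the receptor of arterial muscle, was lower at 1029, 994 and 1068 in lung and 2243, 2752, 2214 and 2393 in intestine, but was not called with the centring (-0.93) or in the 22-library fit. The ligand Jag1 was at 147, 87 and 202 in lung and 833, 742, 710 and 555 in intestine (log2 fold change -2.35 ± 0.26, limma adjusted p = 1.96e-05). Notch1 (52 ± 20.8 in lung and 314 ± 18 in intestine) and the ligand Dll1 (65.7 ± 35.4 in lung and 420 ± 50.5 in intestine) were lower too, while the target Heyl† was higher as above. Of 15 vitamin A genes 5 (33.3%) were lower, 3 of them near the ceiling, a share near the 28.0% of all tested genes. Aldh1a3†, which makes retinoic acid (ENSMUSG00000015134, mm39 chromosome 7, 66040638 to 66077265), was at 64, 106 and 20 in lung and 3154, 3040, 2856 and 3534 in intestine (log2 fold change -5.90 ± 0.41, limma adjusted p = 7.53e-07, and a log2 fold change of -5.23 without lung 3). Rdh10†, which makes retinal, was at 222, 249 and 265 in lung and 2299, 2441, 2212 and 2634 in intestine. Pdgfra† and the gut epithelial markers were high in the same intestinal libraries as the Hedgehog, BMP and retinoic acid genes, with the values given above, and their part in these counts was not tested.

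Collagen and basement membrane genes were lower in lung or not called. Of 21 fibrillar and associated collagens 14 (66.7%) were lower and 0 higher, with a median of -1.99; without ceiling genes 7 were lower and in the 22-library fit 9. Col6a5† (ENSMUSG00000091345, mm39 chromosome 9, 105733277 to 105837842) was at 0, 4 and 6 in lung and 2140, 3271, 2228 and 1593 in intestine. Col12a1, which links fibrils and was under the ceiling, was at 157, 151 and 73 in lung and 2171, 2525, 1998 and 1937 in intestine (log2 fold change -4.15 ± 0.24, limma adjusted p = 2.25e-07). The tissues did not overlap for either. Col1a1† (6484 ± 700 in lung and 4753 ± 720 in intestine) and Col3a1† (0.51), the main fibrillar collagens, were not called. Of 24 basement membrane genes 14 (58.3%) were lower and 0 higher, 7 of the 14 under the ceiling, and in the 22-library fit 9 were lower. The laminin chain Lamb1† was at 503, 378 and 178 in lung and 4700, 4638, 4210 and 4225 in intestine (log2 fold change -3.77 ± 0.27, limma adjusted p = 8.7e-07). Hspg2, perlecan, was at 287, 371 and 413 in lung and 1815, 2203, 1571 and 2349 in intestine (log2 fold change -2.47 ± 0.17, limma adjusted p = 6.4e-07). The laminin chains Lamc1† (574 ± 156 in lung and 3919 ± 561 in intestine) and Lama2 (333 ± 69.2 in lung and 1467 ± 335 in intestine) and the linker Nid1† (416 ± 31.2 in lung and 3164 ± 305 in intestine) were lower too. Lamb2†, a chain of arterial basement membrane, was not called (2752 ± 262 in lung and 2431 ± 132 in intestine).

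Elastic fibre genes divided, with 4 of 20 (20.0%) higher and 7 (35.0%) lower, beside 9.59% and 28.0% of all tested genes. Eln†, elastin itself (ENSMUSG00000029675, mm39 chromosome 5, 134731447 to 134776177), was at 6568, 4872 and 5463 in lung and 2401, 2299, 2106 and 2672 in intestine (log2 fold change 1.24 ± 0.12, limma adjusted p = 7.27e-06), with every lung library above every intestinal one. Its crosslinker Loxl1† (3129 ± 256 in lung and 1128 ± 129 in intestine) and the microfibril gene Mfap5† (1660 ± 256 in lung and 540 ± 110 in intestine) were higher as well. Fbn1†, fibrillin-1, was lower (991, 916 and 836 in lung and 3259, 3091, 2486 and 1899 in intestine). Fbn2, the fetal fibrillin, was at 0, 6 and 17 in lung and 256, 375, 270 and 206 in intestine. Without genes near the ceiling 1 of the higher members and 3 of the lower were left. Tnc†, tenascin-C, which appears at sites of remodelling, was at 262, 218 and 258 in lung and 5073, 4974, 4328 and 4063 in intestine (log2 fold change -4.22 ± 0.12, limma adjusted p = 4.21e-09). Ccn5†, a growth-restraining matricellular protein, was at 3143, 2231 and 2548 in lung and 69, 54, 31 and 65 in intestine (log2 fold change 5.61 ± 0.26, limma adjusted p = 6.49e-08). Its relative Ccn3† was at 3461 ± 720 in lung and 698 ± 66.9 in intestine. The count of higher proteoglycan and matricellular members, 4 of 32, was 8 without lung 2, 11 with lung 1 as the lone lung library and 13 with the centring. Lower members numbered 7, 4 of them near the ceiling. Of 18 integrin genes 8 (44.4%) were lower, or 5 in the 22-library fit, and 2 higher. Itga11†, a collagen receptor of fibroblasts, was at 45, 34 and 7 in lung and 2093, 2524, 1921 and 1739 in intestine. Itgb3†, the beta-3 subunit, was at 87, 149 and 100 in lung and 1436, 1682, 1243 and 932 in intestine. Itgav, its partner that binds vitronectin and latent TGF-beta, was lower too (275 ± 26.4 in lung and 1188 ± 292 in intestine). Itgbl1, an integrin-like secreted protein, was higher (1050, 905 and 602 in lung and 27, 9, 11 and 10 in intestine).

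**Figure D5:**
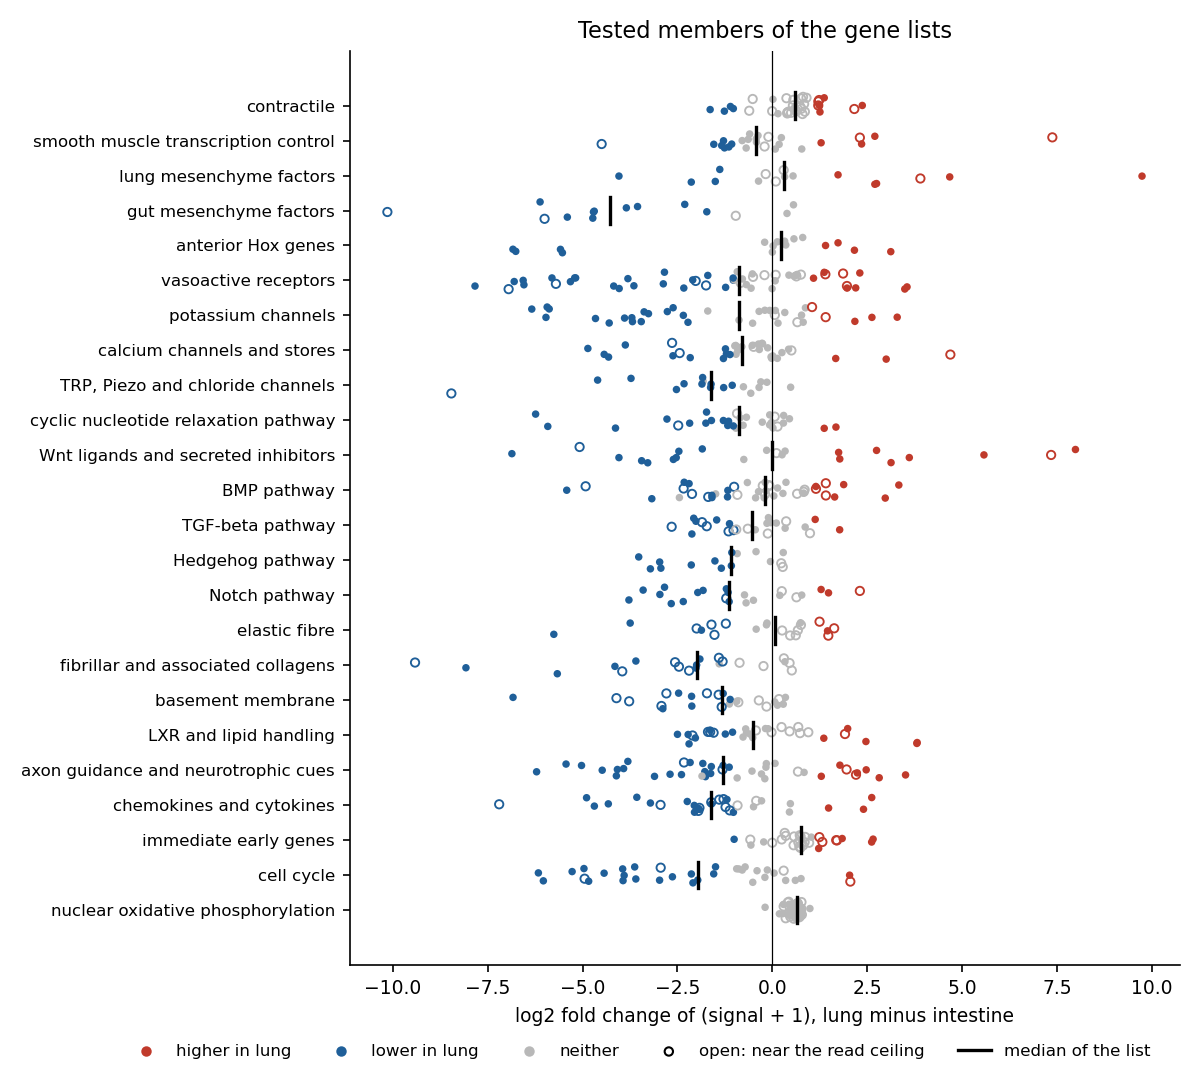
Log2 fold change of (signal + 1), lung minus intestine, of each tested member of 24 gene lists (1 point per gene, coloured by call, open where near the read ceiling), with list medians as bars. Gut mesenchyme factors lie furthest to the left by median at -4.27, and nuclear oxidative phosphorylation genes lie closest together.

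Oxygen and metabolic genes gave mixed counts. Of 24 oxygen sensing genes 4 (16.7%) were higher, 2 of them near the ceiling, and 7 (29.2%) lower, beside 9.59% and 28.0% of all tested genes. In the 22-library fit 2 were higher and 2 lower. Adm†, adrenomedullin, a dilator peptide, was at 1045, 832 and 654 in lung and 123, 92, 94 and 118 in intestine (log2 fold change 2.96 ± 0.20, limma adjusted p = 6.94e-07). Cox4i2†, a cytochrome oxidase subunit needed for oxygen sensing in pulmonary muscle (ENSMUSG00000009876, mm39 chromosome 2, 152596093 to 152606957), was at 624, 462 and 330 in lung and 169, 177, 156 and 230 in intestine (log2 fold change 1.33 ± 0.23, limma adjusted p = 0.000447). Epas1†, which encodes HIF-2 alpha, was lower and just past the threshold (1344, 1033 and 915 in lung and 2365, 2150, 2087 and 2148 in intestine, -1.01). It was not called without lung 2 (-0.98), lung 3 (-0.89) or intestine 1 (-0.97), or with the centring (-0.73). Hif1a was not called (820 ± 140 in lung and 709 ± 258 in intestine). Of 50 nuclear oxidative phosphorylation genes 0 were called, with a median of 0.64, and 35 were near the ceiling. They ran from -0.19 to 0.99. With the centring 12 were higher. The part of the read ceiling in these values was not tested.

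Of 31 lipid genes 6 (19.4%) were higher and 11 (35.5%) lower, 4 of the 11 near the ceiling. Nr1h3†, the liver X receptor alpha, was higher (883, 912 and 915 in lung and 206, 239, 247 and 268 in intestine, log2 fold change 1.91 ± 0.14, limma adjusted p = 9.65e-07). Its targets Abca1 (78.3 ± 30.2 in lung and 350 ± 63.7 in intestine) and Abcg1 (22.3 ± 15.8 in lung and 74.5 ± 17.5 in intestine), which export cholesterol, were lower. Fasn, for fatty acid synthesis, was lower too (155 ± 31.5 in lung and 874 ± 73.5 in intestine). Vldlr, a receptor for triglyceride-rich particles, was at 1443, 1664 and 1091 in lung and 105, 71, 126 and 96 in intestine (log2 fold change 3.81 ± 0.22, limma adjusted p = 2.28e-07). Fabp3, a fatty acid carrier of muscle, was at 30, 123 and 100 in lung and 2, 5, 3 and 9 in intestine. Both were above intestine in every lung library. Of 15 genes of the IGF axis 3 were higher and 2 lower, or 1 lower in the 22-library fit. Igf1†, a growth factor, was at 350, 579 and 488 in lung and 2207, 2346, 2000 and 1722 in intestine (log2 fold change -2.15 ± 0.17, limma adjusted p = 1.92e-06). Igfbp6†, which binds the IGFs, was higher (1080 ± 276 in lung and 215 ± 102 in intestine).

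Of 39 cues for nerves 21 (53.8%) were lower and 8 (20.5%) higher, beside 28.0% and 9.59% of all tested genes, and in the 22-library fit 11 were lower. Summed enteric neuron and glial markers were higher in the same intestinal libraries, as given above, the neuron sums by a narrow margin that rests on Nos1. Members of both lists were called in both directions, and their part in these counts was not tested. Gdnf, which draws enteric neurons (ENSMUSG00000022144, mm39 chromosome 15, 7840327 to 7867056), was at 22, 0 and 15 in lung and 326, 419, 246 and 272 in intestine (limma adjusted p = 0.000252). Nrg1, a ligand for glia and heart, was at 0, 17 and 8 in lung and 442, 450, 363 and 366 in intestine. Gdnf and Nrg1 were at 22 or less in every lung library. Bdnf, a neurotrophin, was higher at 588, 351 and 319 in lung and 49, 63, 55 and 60 in intestine (log2 fold change 2.82 ± 0.26, limma adjusted p = 5.65e-06). Ntrk3, a neurotrophin receptor, was higher at 925, 928 and 805 in lung and 130, 153, 182 and 174 in intestine (log2 fold change 2.47 ± 0.16, limma adjusted p = 5.6e-07). Lung and intestine did not overlap for either. Nrtn†, a relative of Gdnf, was also higher, at 676 ± 107 in lung and 150 ± 42.8 in intestine.

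Of 31 chemokine and cytokine genes 22 (71.0%) were lower, 9 of them near the ceiling, and 3 higher, with a median of -1.61. In the 22-library fit 12 were lower and 1 higher. Cxcl5†, which draws neutrophils, was at 0, 3 and 2 in lung and 332, 440, 298 and 290 in intestine. Il33†, an alarm signal of stromal cells, was at 367, 438 and 381 in lung and 1538, 1803, 1433 and 1366 in intestine (log2 fold change -1.95 ± 0.13, limma adjusted p = 5.59e-07). Csf1†, which keeps macrophages, was at 566, 953 and 628 in lung and 2158, 2370, 1975 and 2038 in intestine (log2 fold change -1.61 ± 0.16, limma adjusted p = 1.17e-05). No lung library reached the lowest intestinal value of any of them. Lymphocyte and mast cell markers summed to 1 to 63 in lung and 534 to 1163 in intestine, and their part was not tested. Only 3 of these 14 markers were high enough to test. The 2 called, both lower, were the antibody genes Igkc† and Jchain†. Cxcl12† was high in both (2001 ± 175 in lung and 2687 ± 230 in intestine). Of 36 interferon and antigen processing genes 11 (30.6%) were lower and 1 higher, beside 28.0% and 9.59% of all tested genes, and in the 22-library fit 5 were lower. Immediate early genes, which rise within minutes of stimulation and of cell handling, were higher in 8 of 29 (27.6%) and lower in 1 (0 in the 22-library fit), with 20 near the ceiling. Atf3†, a stress factor, was at 1679, 2114 and 1774 in lung and 495, 709, 516 and 570 in intestine. Nr4a1†, an orphan nuclear receptor, was at 3653, 3148 and 3201 in lung and 1177, 1685, 1277 and 1556 in intestine. Its relative Nr4a3, under the ceiling, was at 80, 68 and 56 in lung and 12, 18, 3 and 13 in intestine (log2 fold change 2.65 ± 0.54, limma adjusted p = 0.00132). Without ceiling genes 4 were higher, with the centring 16, and with lung 1 as the lone lung library 13. Fos† (0.74) and Egr1† (0.68) were not called.

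Cell cycle genes were lower in lung in 20 of 35 (57.1%), with 2 higher and a median of -1.96, and 13 were lower in the 22-library fit. Mki67, the Ki-67 antigen of dividing cells (ENSMUSG00000031004, mm39 chromosome 7, 135291513 to 135318090), was at 19, 12 and 11 in lung and 227, 144, 301 and 229 in intestine (log2 fold change -3.90 ± 0.34, limma adjusted p = 3.7e-06). Cdk1, the mitotic kinase, was at 26, 9 and 17 in lung and 185, 192, 381 and 327 in intestine (log2 fold change -3.93 ± 0.40, limma adjusted p = 1.16e-05). Aurkb, of chromosome segregation, was at 0, 9 and 3 in lung and 210, 165, 355 and 290 in intestine (limma adjusted p = 1.64e-05). Intestine 3 was highest for all 3, and no lung library exceeded 26. The 2 higher members were inhibitors of cell cycle kinases. Cdkn1a† was at 1438, 1482 and 1229 in lung and 286, 331, 347 and 365 in intestine (log2 fold change 2.06 ± 0.13, limma adjusted p = 4.77e-07). Cdkn1c was at 745, 672 and 613 in lung and 148, 157, 172 and 180 in intestine (log2 fold change 2.04 ± 0.15, limma adjusted p = 1.41e-06). Mcm6, a replication licensing gene (656 ± 94.4 in lung and 753 ± 119 in intestine), and the cyclin Ccnd2 (1475 ± 163 in lung and 1443 ± 283 in intestine) were called in neither direction. Crypt epithelium divides fast, and its markers were high in the same intestinal libraries as given above; the part of these cells was not tested.

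Promoters of several of the lower cell cycle genes share the letters TTTGAA, the cell cycle homology element through which the DREAM complex holds mitotic genes silent in resting cells, and 3 are shown for that reason. In the same 300-base RefSeq windows, both strands searched, TTTGAA was found in 17.9% of all 32851 and in 10 of 28 matched cell cycle genes (35.7%). By call it was found in 9 of 16 lower genes (56.2%), 1 of 11 called neither and 0 of 1 higher. CCAAT, a motif that can share letters at its ends with the first, was found in 37.4% of all windows and in 21 of the 28 matched cell cycle genes (75.0%). It was found in 13 of the 16 lower genes (81.2%) and in 8 of the 11 called neither (72.7%). Capitals mark TTTGAA, at chr7:135716447-135716520 for Mki67, chr10:69352913-69353008 for Cdk1 and chr4:118437344-118437386 for Cdc20†, all on the minus strand of GRCm38.p6.
Mki67: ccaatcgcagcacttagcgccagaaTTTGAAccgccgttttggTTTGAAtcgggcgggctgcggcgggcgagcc
Cdk1: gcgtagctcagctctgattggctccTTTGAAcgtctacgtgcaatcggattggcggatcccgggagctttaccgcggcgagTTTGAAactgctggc
Cdc20: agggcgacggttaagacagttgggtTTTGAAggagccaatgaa
Cdc20†, an activator of the anaphase complex, was at 40, 48 and 53 in lung and 291, 310, 492 and 402 in intestine (log2 fold change -2.94 ± 0.24, limma adjusted p = 2.46e-06). Every lung library lay below every intestinal one for all 3 genes.

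Clock genes set lung 1 apart from lung 2 and 3. Of 20 tested 3 (15.0%) were higher and 5 lower, but without lung 1 the counts were 6 and 3, and in the 22-library fit 1 and 1. Dbp, an output of the clock (ENSMUSG00000059824, mm39 chromosome 7, 45354512 to 45359627), was at 35, 316 and 442 in lung and 139, 112, 129 and 125 in intestine. Nr1d1†, a repressor within the clock, was at 386, 2029 and 1782 in lung and 731, 645, 598 and 700 in intestine. Tef, another output, was at 95, 461 and 539 in lung and 392, 397, 378 and 342 in intestine. For these 3 lung 1 was below all intestinal libraries and lung 2 and 3 were above them. None of the 3 was called over all 3 lung libraries, but without lung 1 Dbp (1.56) and Nr1d1† (1.51) were higher. Hlf, of the same family as Dbp, was higher in all 3 (242, 491 and 337 in lung and 61, 50, 49 and 44 in intestine, log2 fold change 2.73 ± 0.28, limma adjusted p = 1.2e-05). The hour of sampling is not given in the labels.

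By size of change alone, the genes highest in lung against intestine with a lung mean of at least 100 began with Sftpa1†, Sftpc†, Tbx5 and Pnmt†, given above. Itih4†, an acute phase protein (ENSMUSG00000021922, mm39 chromosome 14, 30608433 to 30624310), was at 3579, 3540 and 3806 in lung and 17, 12, 7 and 20 in intestine (log2 fold change 8.01 ± 0.31, limma adjusted p = 2.38e-08), but the aortic mean was 3221 as well. Sec14l3, a lipid carrier of airway cells, was at 173, 288 and 316 in lung and listed at 0 in all 4 intestinal libraries. Both were separate between the tissues. Cbr2†, a carbonyl reductase abundant in lung, was at 1092, 1033 and 1148 in lung and 4, 3, 6 and 4 in intestine. Timp4, an inhibitor of matrix proteases, was at 1744, 1396 and 1649 in lung and 9, 7, 7 and 21 in intestine. In intestine both genes stayed low in every library. Among genes with both means at 100 or more, Tbx4†, Limch1 and Lyz2† led. Limch1, an activator of non-muscle myosin, was at 1673, 1305 and 1115 in lung and 130, 93, 125 and 80 in intestine (log2 fold change 3.67 ± 0.21, limma adjusted p = 2.45e-07). Plcb4, a phospholipase downstream of Gq receptors, was at 1851, 1759 and 1623 in lung and 252, 95, 214 and 111 in intestine (log2 fold change 3.49 ± 0.30, limma adjusted p = 3.43e-06). Cdo1†, of cysteine breakdown (1776 ± 175 in lung and 158 ± 47.4 in intestine), and Pdlim2, an actin-associated adaptor (1189 ± 242 in lung and 105 ± 14.7 in intestine), were higher too.

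In the other direction several of the 12 with the largest change are known from gut epithelium. Dmbt1†, a secreted mucosal glycoprotein, was at 0, 5 and 8 in lung and 4554, 4123, 4305 and 4643 in intestine. Pigr†, which carries antibodies across epithelium, was at 1, 2 and 1 in lung and 2750, 2172, 2797 and 2881 in intestine. Fcgbp†, of mucus, was at 0, 4 and 6 in lung and 3004, 3132, 3779 and 2925 in intestine. These were near 0 in lung, like Olfm4†. Adamdec1†, a protease of gut stroma, was at 0, 2 and 4 in lung and 2395, 2221, 2149 and 2865 in intestine. Cel†, a bile salt lipase made in the pancreas, was at 0, 0 and 2 in lung and 1634, 1274, 645 and 1159 in intestine. Cps1†, a urea cycle enzyme of liver and gut epithelium, was at 0, 4 and 6 in lung and 2698, 2088, 3198 and 2105 in intestine. Each was at 8 or less in every lung library. Among genes with both means at 100 or more, Sfrp1†, Tnc†, Col12a1 and Pdgfra† led, followed by Srpx2†, a secreted matrix protein (128, 144 and 53 in lung and 1516, 1655, 1486 and 1633 in intestine, log2 fold change -3.97 ± 0.28, limma adjusted p = 8.3e-07). Krt19†, an epithelial keratin, was at 82, 157 and 64 in lung and 1194, 1063, 1131 and 1502 in intestine. Aldh1b1†, an aldehyde dehydrogenase of crypts, was at 112 ± 43 in lung and 1459 ± 284 in intestine. Slco2b1†, an organic anion transporter, was at 139 ± 74.3 in lung and 1418 ± 218 in intestine.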

How the data were processed

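RNA of 3 lung and 4 intestinal libraries of arterial smooth muscle cells was compared. Per the labels' protocols libraries were made with SMART-Seq v4 from no more than 10 ng of RNA. The submitters' processing notes name mm39, STAR 2.7.10a with Trimmomatic 0.39 and Picard 3.0.0, featureCounts 2.0.4, and DESeq and DESeq2 1.36.0, with no settings. The deposited values are a whole-number signal that the authors had scaled per library, judged from its steps, so count models were not run on it. The steps of low values gave the signal of 1 read and a rebuilt depth. Exonic lengths came from GENCODE M21 by gene ID.

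Here limma 3.58.1 in R 4.3.3 fitted log2(signal + 1) over the 7 libraries with a mean trend, keeping genes that reached 10 in 3 libraries. A call needed a Benjamini-Hochberg adjusted p under 0.05 and a fold of 2. No batch is given in the labels. The search for read steps and the limma fit were each tested on simulated data. The simulated counts held neither a read ceiling nor the diffuse signal of lung 2 and lung 3, so those tests do not cover them. Promoters are RefSeq windows on GRCm38.p6. Python 3.11.15, numpy 2.4.6, pandas 2.3.3 and matplotlib 3.10.9 made the counts and plots.

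The comparison and the gene lists were chosen with earlier results of these data known. Named by rule were Acta2 and Cspg4, in each direction the 12 called genes of largest change with a mean signal of 100 in the higher tissue and the 10 with 100 in both, and in each list up to 4 called members of largest change and 2 of highest mean, plus transcription factors and receptors of the lists. Other list members were named after their values were seen. Whether libraries that share a number are paired is not given in the labels, and the reported fit treated them as unpaired. Some named genes are not reported here.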

Additional observations from a re-analysis of the deposited data

Results flagged for a closer look

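Each of the following values lay apart from the other 3 intestinal libraries by a gap that took up most of the range of its group (Dixon's ratio over its 95% critical value for 4 samples). This marked 14 of the 218 named genes with an intestinal mean of at least 10, and chance marks about 1 in 20 groups. Groups of 3, such as lung, were not tested.

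In intestine 4 there were 8 such values. The potassium channel Kcnk3 was highest there at 1323, the SM22 gene Tagln at 203, the elastin crosslinker Loxl1 at 1319, the protease inhibitor Timp4 at 21 and the homeobox gene Hlx at 412. The VIP receptor Vipr2 was lowest there at 313, the ADP receptor P2ry1 at 535 and myocardin, Myocd, at 196.

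In intestine 1 the integrin-like gene Itgbl1 was highest at 27, the adaptor Pdlim2 highest at 127 and the lysozyme Lyz2 lowest at 96. In intestine 2 the homeobox gene Pitx1 was lowest at 89 and the adrenergic receptor Adra1b highest at 59. In intestine 3 Bambi, a decoy receptor, was lowest at 149.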

How the results depend on the processing

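Besides the reported setting 20 others were tried, 18 planned and 2 chosen after seeing the data (lung 1 as the lone lung library, and centring on genes under the read ceiling). In a fit of all 22 libraries 2818 genes were called, 827 higher and 1991 lower in lung, and 3670 passed limma's adjusted p alone; the cause was not tested. Of 231 named genes 31 were no longer called there. With no filter on low signal 2386 genes were higher, and the added genes have low values. With the centring 2724 were higher, 44.7% of those called. Leaving out 1 library at a time gave 5225 to 5686 called genes, 1345 to 1527 higher and 3880 to 4309 lower, 8467 to 9405 past adjusted p alone and 24.2% to 28.0% of calls higher. With lung 1 alone, assumed to vary as intestine does, 1711 were higher and 4260 lower, and the direction turned for Acta1 (-4.16) and Dbp (-1.82).

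With the replicate number as a block, which leaves intestine 4 without a partner, 9293 genes passed adjusted p, 1447 higher and 4139 lower by 2-fold. Deviations of same-numbered libraries correlated at -0.0149, -0.0116 and 0.0655, and those of other pairs at -0.0949 to 0.0839. Not every library correlated best with its own number. With so few libraries these values cannot decide whether the numbers pair them, and the labels do not say. Of 104 counts over lists 59 moved by over 1.5 times in some setting other than the fit of all 22 libraries. Tests by edgeR and DESeq2 on rebuilt reads were not run, since whole reads could not be recovered for nearly all genes.

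Depth limits the low end: 1 read is worth 0.6631 to 0.9354 units of signal in lung, and lung 2 and lung 3 hold a diffuse signal. In 1462 genes at 1 or less in the other 20 libraries the mean signal was 1.858 in lung 2 and 4.016 in lung 3. The 95th percentiles there were 5 and 8.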
